A study of Homo sapiens with 12 samples.

Results

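The colony-stimulating factors and their receptors were followed as 8 genes chosen by symbol. The 3 ligand genes were CSF1, which encodes M-CSF, CSF2, which encodes GM-CSF, and CSF3, which encodes G-CSF. The 5 receptor chains were CSF1R, CSF2RA, CSF2RB, CSF3R and IL3RA. They were 8 of 58735 gene rows in the count table, and all 8 were among the 15471 genes with enough counts to test. RNA came from THP-1 macrophages (THP-1 is an established human line from a monocytic leukaemia), transfected at 30 nM with mimics of either miR-122-5p, a microRNA best known from liver, or a control microRNA. After 24 h both groups were rested and given lipopolysaccharide (LPS), a bacterial cell wall component, for 4 h. There were 6 libraries in each group. Every library was LPS-stimulated, so the LPS response itself was not compared. The labels do not say how the cells were made into macrophages. They call the 6 libraries duplications without naming separate cultures, so the spread behind each p-value may be partly or wholly technical.

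M-CSF binds CSF1R, a receptor tyrosine kinase on which macrophage survival and differentiation depend. GM-CSF and interleukin-3 each bind an alpha chain of their own, CSF2RA or IL3RA, and both then use the common beta chain CSF2RB, which signals through the kinase JAK2 and the transcription factor STAT5. G-CSF binds CSF3R, best known for driving neutrophil production. Activated macrophages secrete these ligands, and the CSF2 and CSF3 messenger RNAs are classic examples of short-lived transcripts with AU-rich elements.

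The agent whose action was compared was the mature miR-122-5p, whose natural gene lies on human chromosome 18 (58451088 to 58451109, plus strand, GRCh38.p14). Its RefSeq sequence is shown because its seed, bases 2 to 8 in capitals, is the part that pairs with targets.
hsa-miR-122-5p: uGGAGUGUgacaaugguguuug

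Seed matches were sought in the longest annotated 3′ UTR of each of the 8 genes. An 8mer (ACACTCCA) or a 7mer-m8 (ACACTCC) was found in none of them. The weaker 7mer-A1 (CACTCCA) was found in 2 of 8, among them CSF2RA, against a match of 7 bases or more in 23.9% of 12903 tested genes with an annotated 3′ UTR. The CSF2RA match lies on chromosome X (1310151 to 1310157, plus strand, hg38) and is in capitals in its window.
CSF2RA: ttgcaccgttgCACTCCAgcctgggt
The 15 bases starting just before the CSF2RA match also occur in the longest 3′ UTR of 1117 of 19573 genes, counting CSF2RA. A match is a description of letters, not a site of action.

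Of the 8 genes, 6 were called at an adjusted p under 0.05 by edgeR (quasi-likelihood, p-values Benjamini-Hochberg adjusted across every gene tested), against 50.5% of all tested genes. CSF1 and CSF2 rose, where 24.3% of all tested genes rose, and CSF1R, CSF2RA, CSF2RB and IL3RA fell, where 26.2% fell. CSF3 and CSF3R were not called. The values of the groups did not overlap for 5 of the 8 genes, against 29.5% of all tested genes. The ligand calls were thus both upward and the receptor calls all downward, with receptor changes from 1.25-fold for CSF2RA to 3.00-fold for IL3RA. The sequenced material was bulk RNA, in which fewer cells with a transcript and less of it per cell cannot be told apart.

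**Figure D1:**
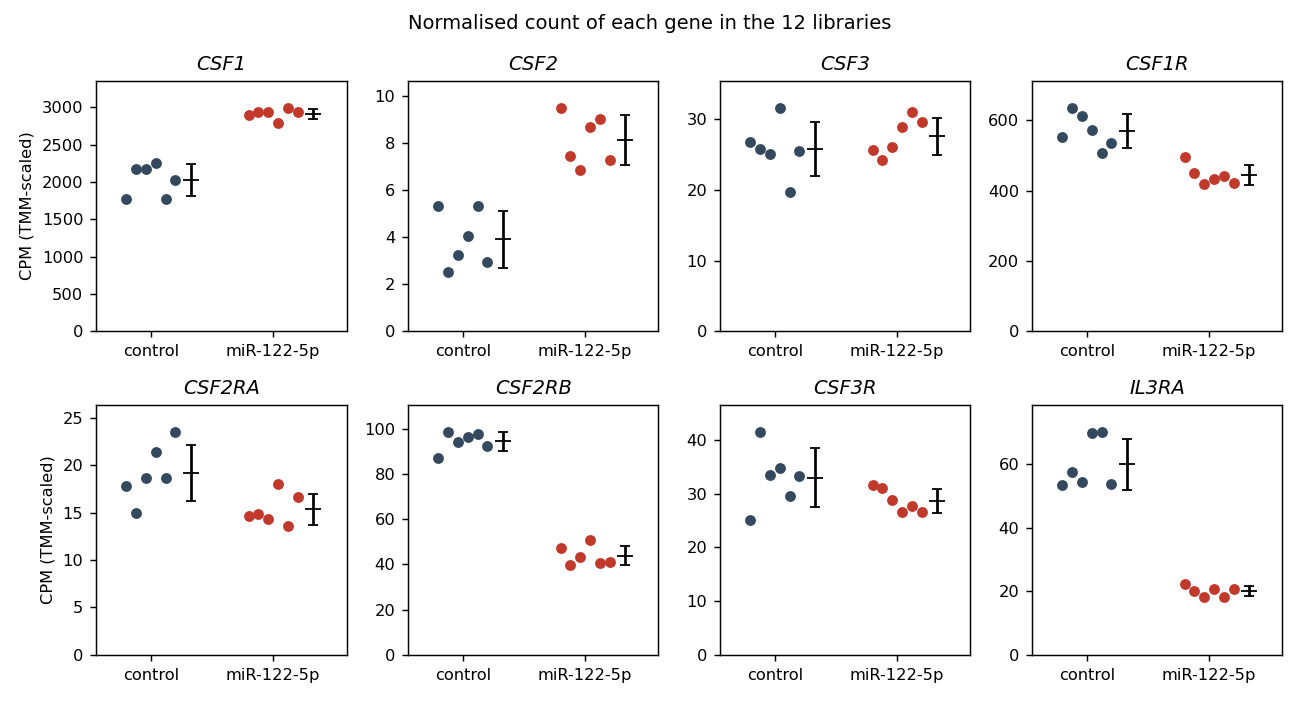
Normalised count (CPM, counts relative to library size, scaled by TMM factors; linear axes from 0) of each of the 8 genes in 6 control mimic and 6 miR-122-5p libraries. Points are libraries and bars the mean ± SD. CSF1 and CSF2 lie wholly higher and CSF1R, CSF2RB and IL3RA wholly lower with miR-122-5p.

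Library totals ran from 29473750 to 39468157 counts. Across all genes the fold changes followed transcript GC content, and each library's slope of log2 CPM on GC content ran from 0.03 to 0.23 per 10 percentage points in the miR-122-5p group and from -0.32 to 0.01 in the control group. The part of this trend in single results was not tested, so values are given beside it with the GC and length trends of each library removed, and with the slope as a covariate. In the control group library 6 had the fewest detected genes (19298, against 20545 to 21256 in the other control libraries), and library 1 the lowest slope. Of 12 monocyte and macrophage markers 10 averaged at least 1 CPM, with summed levels of 2481 to 3011 CPM in the miR-122-5p group and 2461 to 2825 in the control group. The exceptions were MRC1 and CD68, and 85.8% of the exon length of CD68 is shared with other genes. That sum counts CSF1R, one of the 8 genes. TYROBP had the highest level in it (1030 CPM with miR-122-5p, 836.6 in the controls). Genes of that list were called in both directions, so like sums do not mean like levels of each marker. Summed neutrophil markers ranged from 1085 to 1463 CPM with miR-122-5p and from 952.3 to 1346 with the control mimic. Only 3 of these 8 markers averaged at least 1 CPM. Nearly all of the sum came from ELANE (548.6 CPM with miR-122-5p, 561.9 in the controls) and AZU1 (692.9 and 589). Summed B-cell markers ranged from 6.04 to 8.32 CPM with miR-122-5p and from 25.0 to 33.1 with the control mimic. In that list PAX5 and BANK1 fell (-3.36 and -3.01 on the log2 scale), while CD79B was not called (-0.27, adjusted p = 0.551) and averaged 0.920 CPM with miR-122-5p. Their part in the receptor values below was not tested.

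IL3RA, the alpha chain that gives the receptor its interleukin-3 binding, showed the largest change of the 8. Its CPM values with miR-122-5p ran from 18.2 through a median of 20.4 to 22.3, and with the control mimic from 53.6 through 56.1 to 70.4. The highest miR-122-5p library therefore lay far under the lowest control library. The level was 3.00-fold higher in the controls (-1.58 ± 0.09 as a log2 fold change with its SE, n = 6 in each group; edgeR adjusted p = 5.28e-12). Only 2.13% of all tested genes had a lower log2 fold change. With the GC and length trends removed the log2 fold change was -1.68, and with the GC slope covariate -1.66. Leaving out any single library gave -1.61 to -1.53.

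CSF2RB, the common beta chain through which both GM-CSF and interleukin-3 receptors signal, fell as well. With miR-122-5p its CPM values ran from 39.8 through a median of 42.1 to 50.6, and with the control mimic from 87.1 through 95.2 to 98.7. The groups were separated by a wide gap, and the control libraries were close to each other (SD 4.28 CPM around a mean of 94.4). The log2 fold change was -1.11 ± 0.07 (n = 6, edgeR adjusted p = 5.48e-11), a level 2.16-fold higher with the control mimic. It was -1.23 under both treatments of GC content.

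CSF2RA, the alpha chain specific for GM-CSF, differed less. Its CPM values ran from 13.5 through 14.8 to 18.0 with miR-122-5p and from 14.9 through 18.6 to 23.5 with the control mimic. The groups overlapped: 4 miR-122-5p libraries lay under every control library and the other 2 did not. The log2 fold change was -0.32 ± 0.10 (edgeR adjusted p = 0.0142). This call ended without control library 6, the one with the highest CSF2RA level (-0.25, adjusted p = 0.0510), and with the GC slope covariate (-0.12, adjusted p = 0.727). Over all settings tried its adjusted p ran from 0.00334 to 0.727.

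CSF1R, the M-CSF receptor, was the most abundant receptor chain of the 5. Its CPM values ran from 418.8 through 437.5 to 495.7 with miR-122-5p and from 507.1 through 562.7 to 635.0 with the control mimic. The groups did not overlap, but miR-122-5p library 1 (495.7) and control library 5 (507.1) came close. CSF1R fell by 0.36 ± 0.07 on the log2 scale (edgeR adjusted p = 0.000133), a level 1.28-fold higher with the control mimic. When the tested genes were divided by GC content into 10 classes of equal size, CSF1R (57.3% GC) fell in a class whose median log2 fold change was 0.21, and the fall was larger once GC content was taken into account: -0.54 with the trends removed and -0.60 with the covariate.

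CSF3R, the G-CSF receptor, was not called. Its CPM values ran from 26.5 through 28.2 to 31.7 with miR-122-5p and from 25.1 through 33.3 to 41.6 with the control mimic. Control library 1 was the lowest of all 12 and 4 control libraries were above every miR-122-5p library. The log2 fold change was -0.20 ± 0.10 (edgeR adjusted p = 0.0982). It was called lower without control library 1 (-0.26, adjusted p = 0.0146), with the GC and length trends removed (-0.32, adjusted p = 0.00193) and with the GC slope covariate (-0.69, adjusted p = 0.000209). Over all settings its adjusted p ran from 0.000209 to 0.315.

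Among the ligands, CSF2 had the largest rise and the lowest counts. It had 222 to 326 counts per library (median 267) with miR-122-5p and 81 to 184 (median 131.5) with the control mimic. In CPM these were 6.86 to 9.49 (median 8.07) and 2.52 to 5.32 (median 3.64). The groups did not overlap, and in the control group libraries 1 and 5 (5.32 each) stood above the other 4 (2.52 to 4.03). The same 2 libraries had the lowest GC slopes. The level was 2.08-fold higher with miR-122-5p (log2 fold change 1.06 ± 0.17, edgeR adjusted p = 2.29e-05). The CSF2 transcript, at 50.3% GC, sits in a GC class whose median log2 fold change was 0.005, and 3.57% of all tested genes had a higher log2 fold change. The value was 0.99 with the GC and length trends removed and 1.57 ± 0.32 with the covariate.

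CSF1 was the most abundant of the 8. Its CPM values ran from 2789 through 2934 to 2992 with miR-122-5p and from 1769 through 2102 to 2255 with the control mimic. The miR-122-5p libraries were close together (2913 ± 68.5, SD), and all of them lay well above the highest control library. The log2 fold change was 0.52 ± 0.07 (edgeR adjusted p = 1.38e-06), or 1.44-fold. The transcript is GC-rich (59.4%), in a GC class with a median of 0.32, and the rise was smaller after the GC and length trends were removed (0.27, adjusted p = 0.000108) and with the covariate (0.28, adjusted p = 0.0422).

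CSF3 showed no detectable difference. Its CPM values ran from 24.2 through 27.5 to 31.0 with miR-122-5p and from 19.8 through 25.7 to 31.6 with the control mimic. The control libraries held both the lowest and the highest value of the 12. The log2 fold change was 0.10 ± 0.10 (edgeR adjusted p = 0.431), with a 95% interval from -0.09 to 0.29. Its sign turned when the GC and length trends were removed (-0.20, adjusted p = 0.107).

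**Figure D2:**
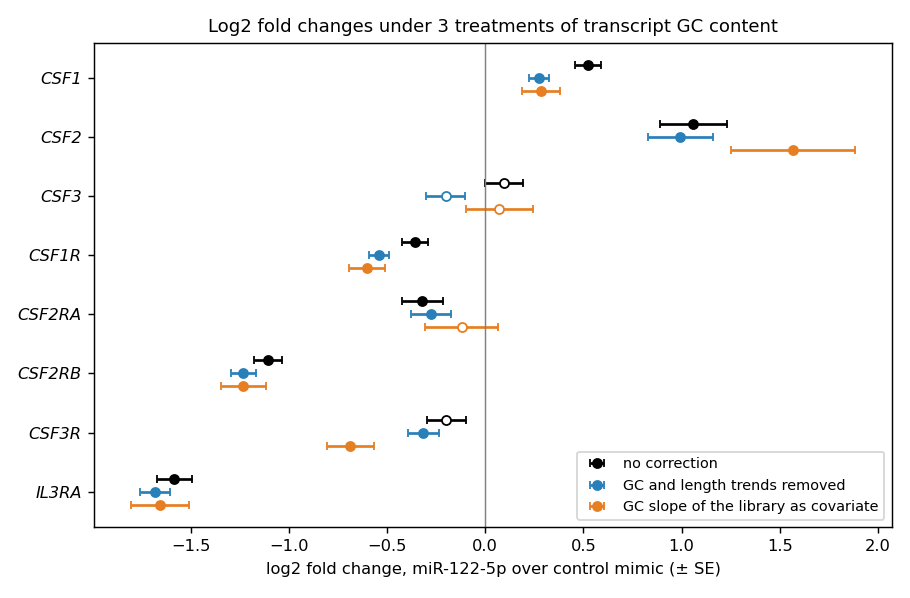
Log2 fold change (miR-122-5p over control mimic) of the 8 genes without correction, with each library's GC and length trends removed, and with its GC slope as covariate. Bars are ± SE and filled points have an adjusted p under 0.05. IL3RA and CSF2RB stay under -1 throughout, CSF2RA loses its call with the covariate, CSF3R gains one under both corrections, and CSF3 turns its sign with the trends removed.

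**Figure D3:**
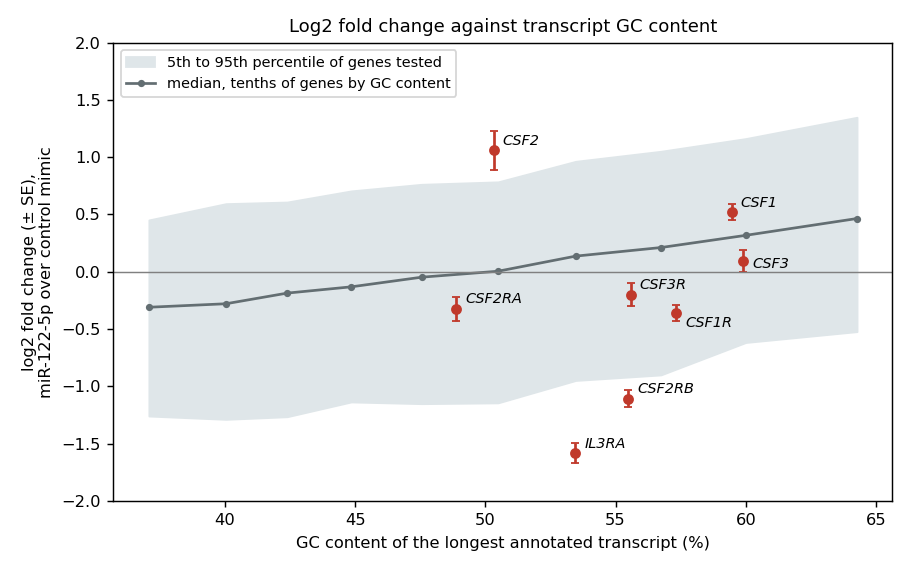
Log2 fold change (± SE) of the 8 genes against the GC content of the longest annotated transcript. The line joins the medians of 10 equal GC classes of all tested genes, drawn at the median GC content of each, and the band spans their 5th to 95th percentiles. CSF2 lies above the band and IL3RA and CSF2RB below it, while the other 5 lie inside.

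Levels of different genes were compared per length, as RPKM, the CPM divided by the length of the merged exons in kilobases. In the control mimic group the order was CSF1 (374.4 ± 39.4, SD, n = 6), CSF1R (110.5 ± 9.24), IL3RA (35.1 ± 4.67), CSF2RB (18.9 ± 0.857), CSF3 (11.6 ± 1.71), CSF2RA (5.00 ± 0.777), CSF2 (4.95 ± 1.54) and CSF3R (3.91 ± 0.651). The last 3 overlapped their neighbours in range, and all other neighbours were separated. With miR-122-5p CSF1 stood at 537.6 ± 12.7 and CSF1R at 86.1 ± 5.45. Below them CSF3 (12.4 ± 1.18), IL3RA (11.7 ± 0.928), CSF2 (10.3 ± 1.36) and CSF2RB (8.76 ± 0.854) formed a run in which each overlapped the next. CSF2RA (4.00 ± 0.428) and CSF3R (3.41 ± 0.263) were again the lowest, and also overlapped. So by this length the IL3RA range lay above that of CSF3 in the control group and overlapped it with miR-122-5p. Orders and overlaps depended on the length used. Per longest transcript with miR-122-5p, the lowest CSF3 value (14.49) exceeded the highest of IL3RA (13.05). The lowest CSF2RA value (5.907) then exceeded the highest of CSF3R (5.214). In the control group CSF3 (up to 18.9) then overlapped CSF2RB (from 17.9), and CSF3R averaged above CSF2. In both groups IL3RA exceeded CSF2RA, the other alpha chain.

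**Figure D4:**
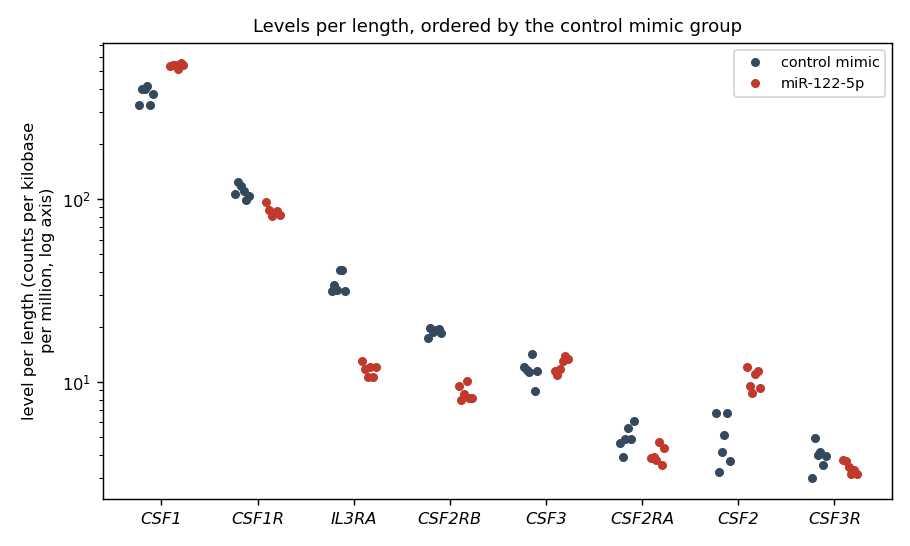
Level per length (RPKM over merged exons, log axis) of the 8 genes in each library, ordered by the control mimic group. CSF1 is highest in both groups, and IL3RA and CSF2RB drop toward CSF3 and CSF2 with miR-122-5p.

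Ratios within a library, which library scaling does not touch, were taken for 6 pairs of a ligand with its receptor chain or of 2 chains. They were chosen after the data were seen, and tested two-sided by exact permutation of the library labels (n = 6 in each group; the smallest p that 6 against 6 can give is 0.00216), adjusted over the 6. CSF1 over CSF1R averaged 2.64 ± 0.10 (log2, SD) under miR-122-5p, against 1.76 ± 0.11 in the controls, so the ligand-to-receptor ratio was 1.85-fold higher. CSF2 over CSF2RA rose from -0.06 ± 0.48 to 1.36 ± 0.25, a 2.68-fold higher ratio. Both had an exact permutation p at that minimum (0.00260 adjusted). For CSF1 over CSF1R this outcome was fixed beforehand, because with miR-122-5p every CSF1 value was higher and every CSF1R value lower. Its p therefore adds nothing to the single-gene results.

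The chains of the shared receptor did not change in proportion. CSF2RB over CSF2RA was 1.93 ± 0.25 with the control mimic and 1.13 ± 0.14 with miR-122-5p, a 1.74-fold lower ratio of beta to GM-CSF alpha chain. In the other direction, CSF2RB over IL3RA was -0.89 ± 0.15 and -0.42 ± 0.13, a 1.38-fold higher ratio, IL3RA having fallen further than CSF2RB. CSF2RA over IL3RA was 2.40-fold higher with miR-122-5p. Each of these 3 ratios had an adjusted exact permutation p of 0.00260 (n = 6) and no overlap between groups. CSF3 over CSF3R differed by 0.29 (exact permutation p = 0.0823 before and after adjustment, n = 6), and its groups overlapped.

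AU-rich elements, bound by mRNA decay and stability factors, were counted as ATTTA pentamers in the longest annotated 3′ UTR. CSF2 held 8 in 321 bases, a density reached by 0.0238% of 12606 tested genes with a 3′ UTR of at least 100 bases. CSF3 held 7 in 857 bases, a density reached by 1.47%. CSF1 held 4 in 2157 bases, CSF2RA and CSF2RB 3 each, and CSF1R, CSF3R and IL3RA 0. The densest 30 bases of CSF2 (chromosome 5, 132076072 to 132076101, plus strand) and CSF3 (chromosome 17, 40016975 to 40017004, plus strand) are shown with the pentamers in capitals, since these 2 genes stand apart from the receptors in this feature while only CSF2 was called higher.
CSF2: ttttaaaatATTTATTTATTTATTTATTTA
CSF3: tcccatgtATTTAtctctATTTAatATTTA

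Promoters were available for 5 of the 8 genes in the RefSeq table (GRCh38.p14). The 250 bases before the start are shown for IL3RA (chrX:1336535-1336784, plus strand), which had the largest fall, and CSF2 (chr5:132073539-132073788, plus strand), which had the largest rise.
IL3RA: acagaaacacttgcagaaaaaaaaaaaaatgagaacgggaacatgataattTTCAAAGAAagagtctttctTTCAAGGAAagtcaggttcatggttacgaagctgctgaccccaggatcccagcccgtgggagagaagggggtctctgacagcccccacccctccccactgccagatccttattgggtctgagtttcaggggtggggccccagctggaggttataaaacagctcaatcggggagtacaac
CSF2: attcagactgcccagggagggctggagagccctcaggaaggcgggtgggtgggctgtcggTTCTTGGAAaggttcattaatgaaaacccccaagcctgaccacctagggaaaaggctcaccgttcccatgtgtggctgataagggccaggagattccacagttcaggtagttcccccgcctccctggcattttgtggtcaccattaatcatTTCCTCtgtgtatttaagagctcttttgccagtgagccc

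Capitals mark matches to 5 motifs searched on both strands: the kappaB consensus, AP-1 (TGANTCA), the STAT-binding GAS word (TTCNNNGAA), an ISRE-like word (GAAANNGAA) and a PU.1 core (GAGGAA). IL3RA held 2 GAS words, starting at positions -199 and -179 counted from the RefSeq start, and CSF2 held 1 at -190 and a PU.1 core at -39. GAS words occurred in 6.57% of 35116 promoter windows of this length and PU.1 cores in 23.6%. The PU.1 core also occurred before starts of CSF1R, CSF2RA and CSF3R, and AP-1 before a start of CSF1R (6.57% of windows). The GAS word thus appeared in the gene with the largest fall and in the one with the largest rise. A match of letters is no evidence of binding.

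The genes most like each of the 8 across the 12 libraries were found by the root mean square difference of log2 CPM centred on each gene's mean, among protein-coding genes averaging 3 or more in log2 CPM. This centring keeps the difference between the groups, so a gene that changed strongly is nearest to genes with a like log2 fold change. Shared regulation was not tested. The nearest to IL3RA (-1.58) were the antiviral GTPase gene MX2 (0.10, log2 fold change -1.60) and TMEM106A (0.10, -1.56). IL3RA itself spread by 0.80 around its mean. The nearest to CSF2RB were CKAP4 (0.07) and the antiviral gene OAS1 (0.07), against a spread of 0.56. MX2 averaged 186.3 ± 16.9 CPM under miR-122-5p, against 563.8 ± 28.3 in the controls (SD, n = 6), and OAS1 225.6 ± 15.2 and 505.5 ± 13.9. CSF1 was nearest to RAB40C (0.06) and the growth factor receptor gene FGFR1 (0.07), and CSF1R to ARHGEF10L (0.06) and SERPINH1 (0.06). CSF2 differed from its nearest, SURF6 and TIMM21, by 0.27, against a spread of 0.63. CSF2RA was nearest to PSME3 (0.10) and PSMG1 (0.11), against a spread of 0.23. CSF3 was nearest to DNMT1 (0.11) and IRF1 (0.12), against a spread of only 0.17. CSF3R was nearest to TRPM4 (0.08) and CLSTN1 (0.08), against 0.20.

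Genes acting next to these receptors were read from lists, by counts and medians beside those of all tested genes (24.3% higher, 26.2% lower, median log2 fold change 0.01). Of 25 genes of receptor-proximal signalling, all tested, 14 were lower, 4 higher and 7 not called (median -0.31). JAK2, the kinase carried by the common beta chain, fell from 136.0 to 28.5 CPM (log2 fold change -2.26 ± 0.13, edgeR adjusted p = 8.09e-12). Its log2 fold change was -1.95 with the GC and length trends removed and -1.71 with the GC slope covariate. The lipid phosphatase INPP5D, a brake on growth factor signals, fell by 0.92 ± 0.08, the Src family kinase LYN by 0.89 ± 0.09 (by 0.57 with the covariate) and STAT3, a transcription factor downstream of G-CSF, by 0.87 ± 0.06. STAT5A (0.19 ± 0.09, adjusted p = 0.0917; -0.019 with the trends removed) was not called and STAT5B was higher by 0.21 ± 0.08 (adjusted p = 0.0281). STAT5B was no longer called under the GC slope covariate (0.31, adjusted p = 0.0964). With the GC and length trends removed 17 of the 25 were lower and 2 higher, with a median of -0.30.

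STAT5 response genes, such as suppressors of cytokine signalling and survival factors, did not share a direction. Of 15, 14 were tested, 6 were higher, 3 lower and 5 not called (median 0.16). The proliferation factor MYC rose by 0.68 ± 0.10, the cytokine OSM by 0.70 ± 0.12 and the kinase PIM1 by 0.40 ± 0.07, while the survival factor MCL1 fell by 0.37 ± 0.06. CISH, a feedback inhibitor induced by STAT5, was lower by 0.82 ± 0.28 (adjusted p = 0.0180) at low levels of 0.780 and 1.39 CPM. With the trends removed 4 were higher and 4 lower, with smaller values for OSM (0.43), PIM1 (0.24) and MCL1 (-0.20). With the covariate 2 were higher and 2 lower; MYC, OSM, MCL1 and CISH were then no longer called (adjusted p = 0.0734, 0.348, 0.0710 and 0.433).

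Factors known to act on the CSF1R gene were also divided. Of 12, 4 were higher, 3 lower and 5 not called (median 0.03). KLF4, a transcription factor of monocyte differentiation, fell by 0.68 ± 0.09, ETS2 fell by 0.52 ± 0.07, and MAF rose by 0.90 ± 0.13. The MAF call ended with the covariate (0.51, adjusted p = 0.109). The master myeloid factor SPI1, which encodes PU.1, was not called (0.17 ± 0.09, adjusted p = 0.107) and was called lower with the trends removed (-0.32, adjusted p = 7.56e-06). Corrected in that way 5 of the list were higher and 5 lower.

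Of 15 factors known to act on the CSF2 and CSF3 genes, 5 were higher, 5 lower and 5 not called (median 0.12). REL, an NF-kB subunit, fell by 0.73 ± 0.10 and BATF by 0.80 ± 0.13, while the AP-1 subunits JUN and JUNB rose by 0.40 ± 0.09 and 0.41 ± 0.09. Other genes overlap 43.3% of the exon length of REL. With the GC and length trends removed 2 were higher and 8 lower (median -0.17), and with the covariate 1 was higher and 3 lower. With the trends removed JUNB stood at -0.087 (adjusted p = 0.335), JUN at 0.24 and REL at -0.40, and with the covariate JUN stood at -0.026 (adjusted p = 0.904), JUNB at 0.02 and REL at -0.31 (adjusted p = 0.118).

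Of 10 factors acting on AU-rich mRNAs, 4 were higher, 2 lower and 4 not called (median 0.08). ZFP36L1, which promotes decay, rose by 0.78 ± 0.10, and ELAVL1, which stabilises such mRNAs, rose by 0.54 ± 0.07. N4BP1 and RC3H1, regulators of mRNA decay, fell by 0.86 ± 0.07 and 0.63 ± 0.08, RC3H1 by 0.30 with the GC and length trends removed. ZFP36, the best known decay factor of CSF2 mRNA, was not called (0.17 ± 0.14, adjusted p = 0.304), but its sign turned with the trends removed (-0.024, adjusted p = 0.880) and it was called lower with the covariate (-0.49, adjusted p = 0.0477). With the trends removed 3 were higher and 5 lower (median -0.12), and with the covariate 2 were higher and 4 lower.

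Genes that mark macrophages grown in GM-CSF or in M-CSF were compared as readouts of the pathway. Of 10 GM-CSF genes 7 were tested, with 2 higher and 3 lower (median -0.09): the chemokine CCL22 rose by 1.42 ± 0.08 and the lipid-sensing receptor PPARG by 0.66 ± 0.08, while the activin subunit INHBA fell by 1.15 ± 0.08 and the prolyl hydroxylase EGLN3 by 0.70 ± 0.09. INHBA stood at -0.83 with the GC and length trends removed and at -0.88 with the covariate. Of 12 M-CSF genes 7 were tested, with 1 higher and 4 lower (median -0.46). The haemoglobin scavenger receptor CD163 fell by 0.81 ± 0.11 and the lectin CD209 by 0.62 ± 0.10. MAF, the gene of this list that was higher, is given above. Both lists thus held called genes of either direction. With the covariate this held for the GM-CSF genes (2 higher, 2 lower, median 0.20), while of the M-CSF genes 0 were higher and 3 lower (median -0.09).

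**Figure D5:**
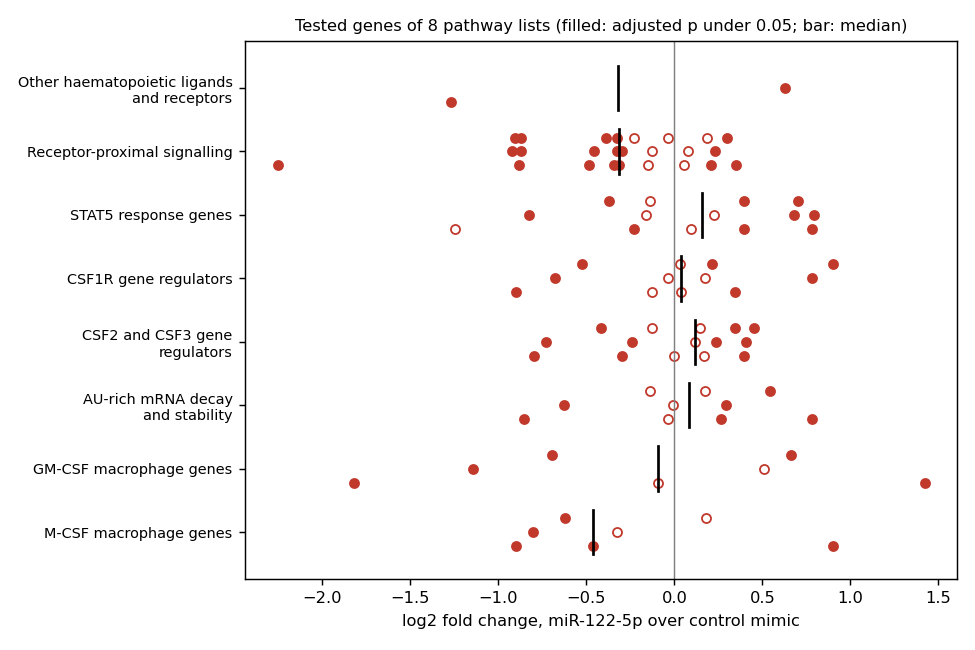
Log2 fold change (miR-122-5p over control mimic) of the tested genes of 8 pathway lists; each point is a gene, filled where the adjusted p is under 0.05, and the black bar is the list's median. JAK2 is the point at -2.26 in receptor-proximal signalling, the list in which 14 of 25 genes were lower.

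CSF2RA and IL3RA lie in the pseudoautosomal region, annotated identically on chromosomes X and Y (GENCODE 29: CSF2RA at X 1268800 to 1310381, IL3RA at X 1336616 to 1382689, plus strand). How reads matching both copies were counted is not given in the sources used here. Of 15 genes of this region 13 had enough counts to test, 6 were higher, 5 lower and 2 not called (median 0.15). The 5 lower genes include CSF2RA and IL3RA themselves. The other genes of the region also held calls in both directions. SLC25A6, a mitochondrial ADP/ATP carrier gene, rose by 0.72 ± 0.07 (by 0.23 with the GC and length trends removed and 0.46 with the covariate), while DHRSX and ZBED1 fell by 1.03 ± 0.07 and 1.14 ± 0.09. ZBED1 lies within the span of DHRSX on the same strand. Other genes overlap 10.9% of the exon length of DHRSX and 8.33% of that of ZBED1. CRLF2, another cytokine receptor chain gene of the region, was lower by 0.70 ± 0.13 (adjusted p = 0.000145). With the trends removed 3 of the region were higher and 7 lower (median -0.18), again counting CSF2RA and IL3RA as lower. The other 6 genes lie on chromosomes 1 (CSF1, 109910242 to 109930992, and CSF3R, 36466043 to 36483278), 5 (CSF2, 132073790 to 132076170, and CSF1R, 150053291 to 150113372), 17 (CSF3, 40015361 to 40017813) and 22 (CSF2RB, 36913628 to 36940449). Each is protein-coding, and other annotated genes overlap 0% of the exon length of any of the 8.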

How the data were processed

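The authors deposited 1 table of raw read counts per gene for 12 libraries. Per the submitters' processing notes the tools included featureCounts 1.5.0-p3 and HISAT2 2.0.5, on hg38. The sources used here do not give the strand setting or annotation release. Columns were matched to samples by name and title, taking "nc" columns as the control mimic. All 58735 identifiers were found in GENCODE 29, which gave symbols, positions, lengths, GC content and 3′ UTRs; sequences of the microRNA and promoters are from RefSeq.

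In R 4.3.3, genes were filtered with filterByExpr (minimum count 10), scaled by TMM and tested with edgeR 4.0.16 (quasi-likelihood, Benjamini-Hochberg over 15471 genes, threshold 0.05). SE is the log2 fold change divided by the root of F. In log2 CPM a prior count of 2 was used. Alternatives were DESeq2 1.42.0, limma-voom (limma 3.58.1), other scalings and filters, the replicate block, each library left out, GC and length trends as spline offsets (4 degrees of freedom), the GC slope as covariate and, added after the data were seen, leaving out control libraries 1 and 6. In simulated counts for the 15471 genes, edgeR called 48 of the 100 genes given a log2 change of 0.5, 81 of 100 at 1, 6 unchanged genes, and 0 when no gene was changed. Only 200 genes were changed there, against 7810 called in the data, and the simulated libraries had no GC trend. These shares therefore need not hold for the data, and they do not cover calls that follow the GC trend. Libraries within a group differed beyond sampling noise.

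The 8 genes and all lists, written from general knowledge, were chosen with earlier results of these data known. Some items are not reported here. Named were the 8 genes, up to 4 called genes of smallest p per list and the 2 nearest patterns per gene. STAT5A, STAT5B, CISH, SPI1, ZFP36, CRLF2, PAX5, BANK1, CD79B, CD68, MRC1, TYROBP, ELANE, AZU1 and the low-count genes of the closing section were named after their values were seen.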

Additional observations from a re-analysis of the deposited data

Results flagged for a closer look

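Each of the 8 genes, the other named genes and the 6 ratios was examined in each group of 6 libraries, and 3 such sets held a library standing apart from the other 5 by Dixon's criterion; chance gives about 1 in 20. None of the 3 was one of the 8 genes. BATF was lowest in miR-122-5p library 6, at 1.77 log2 CPM against 2.29 to 2.49 in the other 5. CD163 was highest in control library 3, at 3.42 against 3.03 to 3.17. IRF1 was lowest in control library 5, at 7.51 against 7.77 to 7.91.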

How the results depend on the processing

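With the GC slope covariate 3004 genes were called, 1117 higher and 1887 lower, against 7810 (3756 and 4054); genes called fell to 1 for other haematopoietic ligands and receptors, 4 for STAT5 response, 4 for CSF2 and CSF3 regulators, 3 for M-CSF genes and 6 for the pseudoautosomal region. Under this covariate CSF2RA was at -0.12 and CSF3R at -0.69, JUN reversed to -0.026 and DNMT1 to -0.030. With GC and length trends removed CSF3R was called (-0.32), and CSF3 (-0.20) and JUNB (-0.087) reversed. Without control libraries 1 and 6 CSF3R was called (-0.28). At an adjusted p under 0.01 CSF2RA (-0.32) was no longer called. Leaving out each library gave 7235 to 7879 calls, -0.38 to -0.25 for CSF2RA and -0.26 to -0.11 for CSF3R. The causes were not tested. With the longest transcript as length the mean levels over 12 libraries were 586.9 for CSF1, 126.9 for CSF1R, 15.9 for CSF3, 7.52 for CSF2RA and 5.08 for CSF3R. Some orders and overlaps between genes changed with that length. CSF1, CSF2, CSF1R, CSF2RB and IL3RA kept direction and call in all settings tried. CSF3 over CSF3R passed without control library 1 (0.38), miR-122-5p library 2 (0.35) or both control libraries (0.40); the other 5 ratios kept their calls. Replicate numbers did not pair the libraries (same-number r -0.105 to 0.0660, 1 of 6 best with its own number); with them as a block 7587 genes were called and no call of the 8 genes changed. CSF2 had the fewest counts of the 8 genes, 81 to 326 per library.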

Other observations

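Other ligands and receptors of this kind were mostly near or at 0. No count was found for IL3, IL5RA or THPO in any library, which allows a level of up to 0.0760 to 0.102 CPM per library (3 counts; counting error only). IL34, the second ligand of CSF1R, had 10 counts over the miR-122-5p libraries and 2 over the controls, and IL5 had 0 and 4. EPO had 16 and 0, FLT3 45 and 41, and KIT 4 and 4. The 2 tested genes of that list moved apart: KITLG, the ligand of KIT, fell from 18.9 ± 3.59 to 7.86 ± 1.14 CPM (SD, n = 6; log2 fold change -1.27 ± 0.13, edgeR adjusted p = 4.03e-08; -0.65 with the GC slope covariate), and the erythropoietin receptor gene EPOR rose by 0.63 ± 0.09 (edgeR adjusted p = 9.12e-06; 0.40 with the GC and length trends removed), which was no longer called under that covariate (0.46, adjusted p = 0.0562). CCL17, a chemokine of GM-CSF macrophages, was under the count filter with 102 counts over the miR-122-5p libraries and 28 over the controls.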
